A study of Rattus norvegicus with 9 samples.

Results

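The numbered Zfp genes are the rat genes whose symbol is Zfp followed only by a number. They were taken as the array's probe sets with exactly 1 gene symbol of that form, leaving out Zfp36, which encodes an mRNA decay protein of another kind. Where a gene had several probe sets, the brightest on average over the 9 arrays stood for it. This gave 135 genes among 14324 genes with 1 symbol. They were measured on 9 Affymetrix Rat Gene 1.0 ST arrays of total RNA from growth-arrested smooth muscle cells of the rat aorta (RASMC), a commercial primary culture kept below 10 passages and held in 0.2% serum for 24 hr. The Control group (3 arrays) was kept in control DMEM, the Ouabain group (3 arrays) in DMEM with 3 mM ouabain and the K_Free group (3 arrays) in K+-free DMEM, and all were harvested after 6 hr. All 9 cultures had been washed with K+-free DMEM first, and the study describes the 3 arrays of a group as independent experiments. The sources used here do not give the strain, age or sex of the rats, or whether the cells came from more than 1 animal. Both treatments stop the Na+,K+-ATPase, which then lets Na+ accumulate in the cell and K+ leave it, and the question here is how the mRNA of these genes differed between the 3 media.

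Most numbered Zfp genes encode C2H2 zinc finger proteins, in which tandem fingers held by a zinc ion read DNA sequence. Many of them also carry a KRAB domain, which recruits the corepressor Trim28 (also called KAP1) and, through it, histone methyltransferases that silence chromatin, in particular at transposable elements. KRAB zinc finger genes tend to lie in clusters on the chromosome. A minority have other tasks: transcription factors of broad use, ribosome and RNA proteins, or regulators of development, and the number in the symbol does not tell these kinds apart.

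More numbered Zfp genes fell than rose in either treatment, and the falls reached further than the rises. With ouabain 61 of the 135 genes were lower and 31 were higher, and without K+ 54 were lower and 34 were higher (limma, Benjamini-Hochberg adjusted p under 0.05 over all 27342 probe sets and a fold above 1.2). Over all probe sets, the same rule called 16.8% lower and 15.8% higher with ouabain, and 17.9% lower and 16.1% higher without K+. The genes lowered by more than 2-fold numbered 24 with ouabain and 19 without K+, against 3 raised by more than 2-fold in each. Such falls outnumbered such rises among the other genes with 1 symbol too. There 5.34% were lowered and 1.82% raised past 2-fold with ouabain, and 5.74% and 2.81% without K+. The risers past 2-fold were Zfp819, Zfp367 and Zfp335 with ouabain, and Zfp217, Zfp367 and Zfp143 without K+. The log2 differences ran from -2.78 to 1.31 with ouabain, with a median of -0.21 and quartiles of -0.68 and 0.20. Without K+ they ran from -2.99 to 1.45, with a median of -0.07 and quartiles of -0.61 and 0.29. Both treatments were set against the same 3 Control arrays, so the counts of the 2 comparisons are not independent of each other. In RNA from whole cultures, fewer cells of a kind and less RNA per cell cannot be told apart. With the arrays centred on B2m, the reference gene of the study's RT-PCR, the split was 79 lower and 21 higher with ouabain and 64 lower and 16 higher without K+. That centring moved the median of all probe sets from 0.07 to -0.08 with ouabain and from 0.06 to -0.10 without K+.

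**Figure D1:**
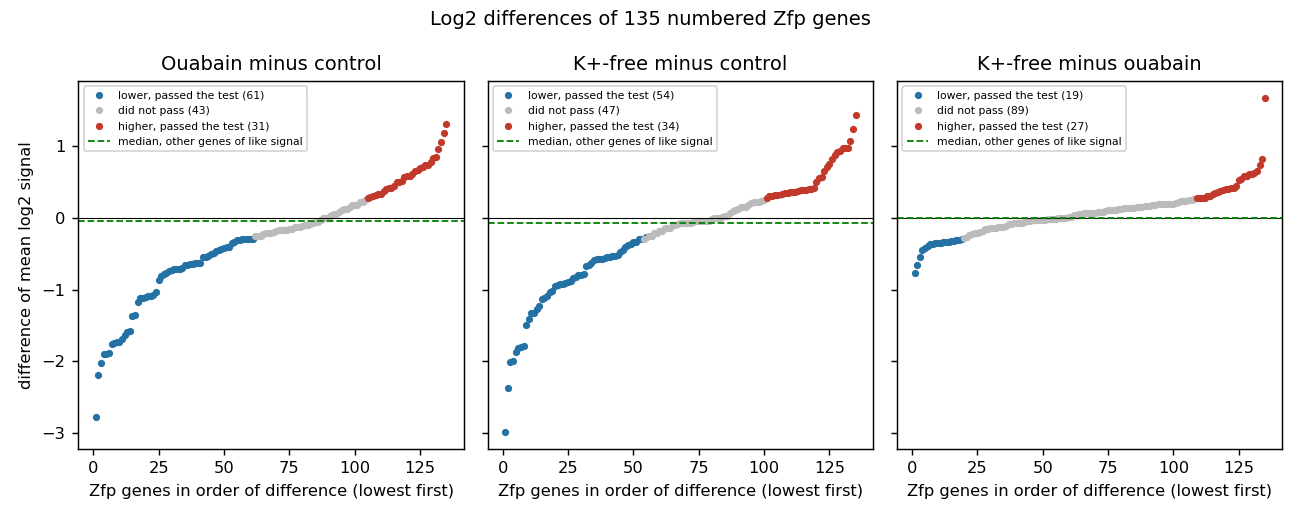
Each point is 1 of the 135 numbered Zfp genes, placed by its difference of mean log2 signal (3 arrays a group, vertical axis) in order of size (horizontal axis), for each pair of media: Ouabain against Control, K_Free against Control, and K_Free against Ouabain. Blue points passed the test as lower (61, 54 and 19), red as higher (31, 34 and 27), grey did not pass, and the dashed line is the median of other genes of like signal (-0.05, -0.07 and 0.00); in the first 2 panels the blue tail reaches further from 0 than the red one.

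Other genes of the same brightness were also called lower more often than higher. In these calls they leaned down less than the members with ouabain, and slightly more than the members without K+. The mean signal of the members ran from 5.44 to 12.33 on the log2 scale. Other genes had a median signal of 7.43 and were lower in 22.5% and higher in 17.5% of cases with ouabain. Other genes weighted to the members' signal, in 10 equal bins of mean signal, were lower in 36.9% and higher in 19.5%, against 45.2% and 23.0% of the numbered Zfp genes. Without K+ the like-signal genes were lower in 38.5% and higher in 20.3%, against 40.0% and 25.2% of the members, and the medians were -0.07 for both. Falls past 2-fold made up 17.8% of the members and 10.2% of like-signal genes with ouabain, and 14.1% and 10.6% without K+. Rises past 2-fold made up 2.22% of the members in each treatment. Among like-signal genes they made up 2.49% with ouabain and 3.78% without K+, so falls past 2-fold outnumbered rises there as well. A mean over all 9 arrays is itself lowered by a fall on the 6 treated ones. Weighted by the mean of the 3 Control arrays instead, a choice made after seeing the data, like-signal genes were lower in 36.4% and higher in 21.6% with ouabain and lower in 37.8% and higher in 22.4% without K+, with falls past 2-fold in 9.36% and 9.84%. These shares are descriptions, since genes are not replicates.

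How the falls were spread over dim and bright members depended on which arrays set the brightness. By the mean of the Control arrays, with a members' median of 8.43, the 67 dimmer members had 34 lower and 13 higher with ouabain, and the 68 brighter ones had 27 lower and 18 higher. Without K+ the dimmer members had 29 lower and 16 higher, and the brighter ones 25 lower and 18 higher. By the mean of all 9 arrays, with a median of 8.26, the contrast was wider: 41 lower and 8 higher among the dimmer members against 20 lower and 23 higher among the brighter ones with ouabain, and 35 lower and 11 higher against 19 lower and 23 higher without K+. That second split counts as dim 7 members that were at or above the median in control, such as Zfp846 and Zfp9. The Control arrays in turn enter both comparisons, so neither split is independent of the differences counted. Centred on B2m and split by Control signal, 43 dimmer and 36 brighter members were lower with ouabain, and 32 of each without K+.

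In 10 equal bins of Control signal over all genes, the members were lower more often than other genes in bins 4 and 5. With ouabain 6 of 11 members of bin 4 (5.94 to 6.46) were lower against 4.01% of other genes, and 18 of 29 in bin 5 (up to 7.64) against 29.9%. Without K+ it was 5 of 11 against 3.66%, and 17 of 29 against 29.7%. Bin 4 lies below the median of every array, and its other genes were more often higher, in 18.1% with ouabain and 18.6% without K+. How far low signal limits the falls of other genes there was not tested. In bins 6, 7 and 8 the members were lower less often than the others in both media. In bin 9, 5 of 10 members were lower with ouabain against 32.7%, and 3 of 10 without K+ against 38.0%. None of the 4 members in bins 2 and 3 was lower.

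**Figure D2:**
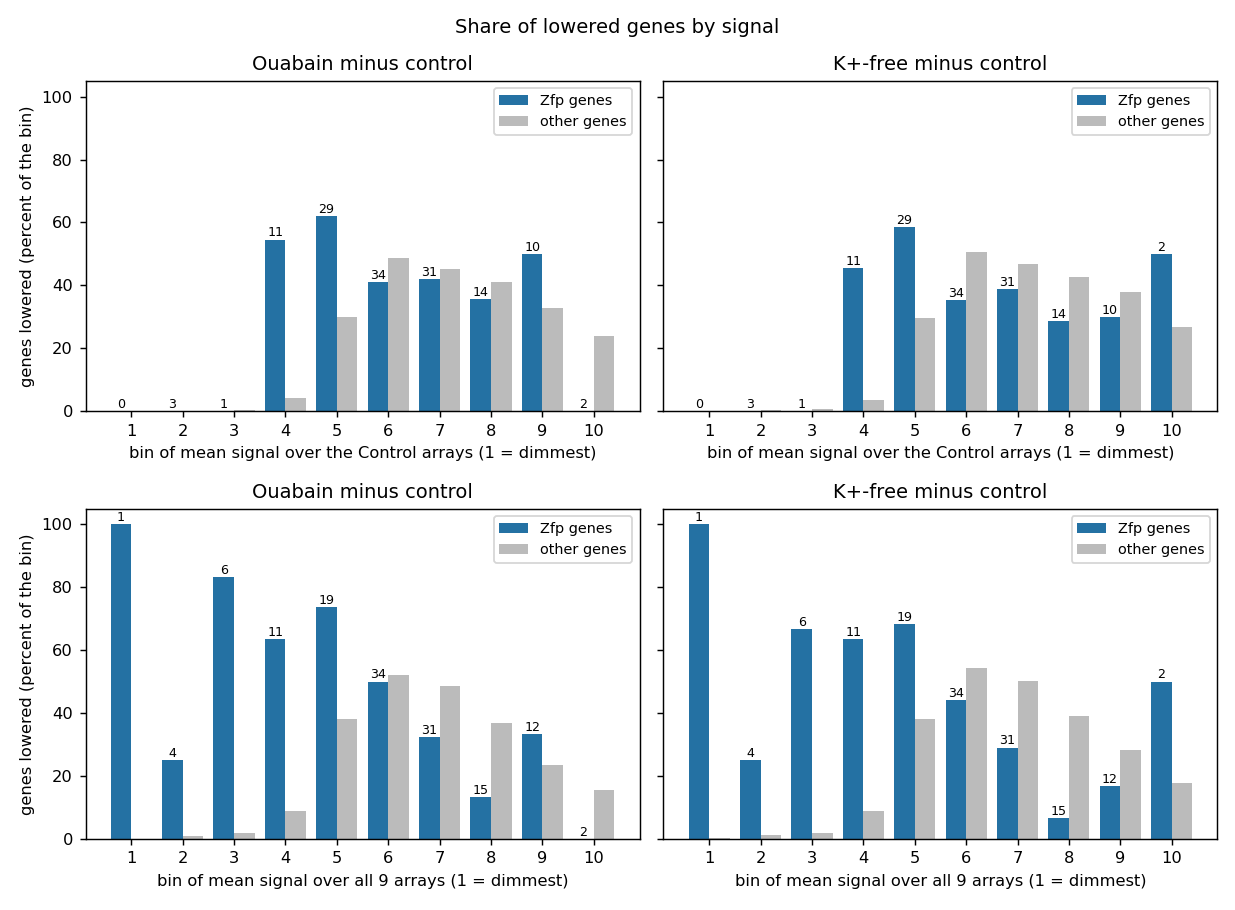
Bars give the percent of genes that passed the test as lower (vertical axis) in each of 10 equal bins of mean log2 signal (horizontal axis, 1 is dimmest), sorted by the 3 Control arrays (upper panels) or by all 9 arrays (lower panels), with ouabain (left) and without K+ (right) against control; blue bars are the numbered Zfp genes, with their number above, and grey bars all other genes with 1 symbol. Blue stands above grey in bins 4 and 5 and below it in bins 6 to 8 in all 4 panels, bins 1 to 3 hold lowered members only when sorted by all 9 arrays, and several bars rest on few members.

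The deepest fall in either treatment was that of Zfp958, a C2H2 zinc finger gene. Its log2 signals were 10.31, 10.47 and 10.51 on the Control arrays, 7.53, 7.65 and 7.77 on the Ouabain arrays, and 7.45, 7.30 and 7.57 on the K_Free arrays. All 6 treated arrays lay far below all 3 Control arrays. The fall was 6.88-fold with ouabain (log2 difference -2.78, SE 0.087, limma adjusted p = 2.60e-09) and 7.95-fold without K+ (-2.99, SE 0.087, limma adjusted p = 8.50e-10). A second probe set of the gene differed by -2.96 and -3.14. Zfp40 had 9.77, 9.79 and 9.78 in control, 7.82, 7.85 and 7.60 with ouabain, and 7.39, 7.30 and 7.52 without K+. The 3 groups did not overlap. It fell 4.07-fold with ouabain (limma adjusted p = 7.10e-09) and 5.20-fold without K+ (limma adjusted p = 1.71e-09). Zfp846 had 9.21, 9.27 and 9.06 in control against 6.96, 7.06 and 6.93 with ouabain and 7.33, 6.91 and 7.27 without K+, falls of 4.59-fold and 4.02-fold. Its treated arrays overlapped each other and stayed more than 1 log2 unit below control. The study's own tables print entries named Zinki and Zfp426l2, chosen on these arrays. Their fold changes equal those of the second Zfp958 probe set and of Zfp846, so the falls of Zfp958 and Zfp846 here are not independent evidence.

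The other deep falls were in genes whose products are known mainly as C2H2 zinc finger proteins. Zfp9 fell 3.71-fold with ouabain and 3.99-fold without K+, and Zfp39 3.72-fold and 3.54-fold. Zfp110, the gene of a protein that binds the p75 neurotrophin receptor, fell as well (log2 differences of -1.74 and -1.81), from 10.00, 9.98 and 9.97 in control to 8.24, 8.15 and 8.33 with ouabain and 8.30, 8.07 and 8.14 without K+. Zfp68 fell 3.40-fold and 3.45-fold, with the widest spread of this group: its treated arrays ran from 7.75 to 8.30 with ouabain and from 7.56 to 8.32 without K+. Zfp386 fell 3.02-fold and 3.67-fold. These 5 genes and Zfp40 are printed in the study's own tables, where they were chosen on these arrays, so their falls here are not independent evidence. Among the genes the study did not list, Zfp184 fell 3.22-fold and 2.83-fold, and Zfp426 3.11-fold and 2.66-fold. Every gene in this paragraph had adjusted p-values in both comparisons between 1.71e-09 and 8.28e-06 (limma), and none of their treated arrays reached a Control array.

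For 3 further genes the fall was deeper with ouabain than without K+. Zfp329 had 9.42, 9.22 and 9.29 in control, 7.41, 7.43 and 7.42 with ouabain, and 8.05, 8.01 and 8.05 without K+. The groups formed 3 separate steps, and the K_Free mean exceeded that with ouabain by 0.62 on the log2 scale (SE 0.058, limma adjusted p = 2.06e-05). Zfp523, the relative of Zfp143 known in humans as ZNF76, fell 3.35-fold and 2.51-fold, with a log2 difference between the treatments of 0.42. Zfp799 fell 3.32-fold and 2.52-fold, with a difference of 0.40. Both differences passed the limma test (adjusted p = 0.00264 and 0.0108) and neither passed the methods' t-test after adjustment.

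**Figure D3:**
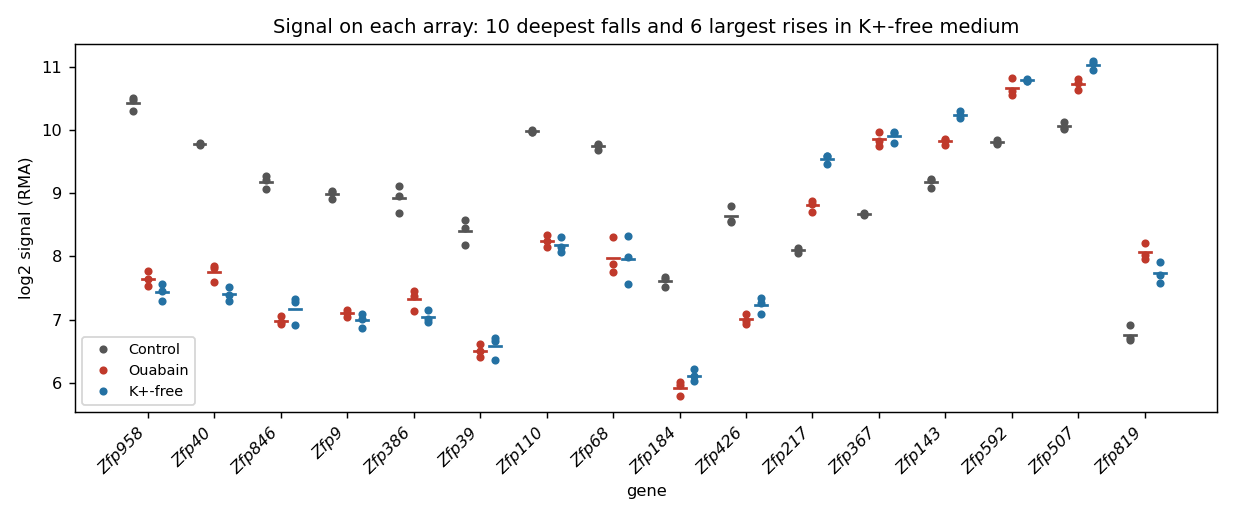
Points are log2 signals of single arrays (vertical axis) for 16 genes (horizontal axis), the 10 with the deepest fall and the 6 with the largest rise without K+; grey is control, red ouabain, blue K+-free medium (3 arrays each), and the short line is the group mean. For the 10 falling genes every treated array lies below every control array, and for the 6 rising genes every treated array lies above.

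The largest rise with ouabain was that of Zfp819, whose protein is known in the mouse as a KRAB partner of Trim28. Its signals were 6.70, 6.68 and 6.91 in control, 7.96, 8.22 and 8.03 with ouabain, and 7.71, 7.58 and 7.92 without K+. Every treated array lay above every Control array. The rise was 2.48-fold with ouabain (limma adjusted p = 9.46e-07) and 1.96-fold without K+ (limma adjusted p = 9.45e-06). Zfp367 went from 8.66, 8.68 and 8.67 in control to 9.97, 9.83 and 9.75 with ouabain and 9.96, 9.80 and 9.97 without K+. That was a 2.27-fold and a 2.36-fold rise, and the treated groups overlapped each other. Zfp592 rose 1.81-fold and 1.98-fold, Zfp24, which is needed for myelination, 1.79-fold and 1.90-fold, and Zfp507 1.59-fold and 1.97-fold. All of these rises passed the test, and the arrays of each treatment lay above control.

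The promoters of the 2 members with the deepest falls and the 2 with the largest rises without K+ are shown, so that the letters upstream of genes that moved furthest can be read side by side. They are the 250 bases upstream of the RefSeq start of each gene, written 5′ to 3′ on the gene's own strand, from assembly GRCr8. Zfp958 (chr12:8750980-8751229, plus strand) and Zfp40 (chr1:71658767-71659016, minus strand) fell. Zfp217 (chr3:179321694-179321943, minus strand) and Zfp367 (chr17:970646-970895, plus strand) rose. Capitals mark ACGTG or GCGTG, the core letters of a hypoxia response element, and TTCCGG, the core of an ETS site, on either strand.
Zfp958: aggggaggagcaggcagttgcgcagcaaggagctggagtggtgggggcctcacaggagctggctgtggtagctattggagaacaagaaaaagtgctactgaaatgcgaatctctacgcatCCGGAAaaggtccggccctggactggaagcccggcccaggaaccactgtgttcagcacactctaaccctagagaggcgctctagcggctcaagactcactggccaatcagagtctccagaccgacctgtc
Zfp40: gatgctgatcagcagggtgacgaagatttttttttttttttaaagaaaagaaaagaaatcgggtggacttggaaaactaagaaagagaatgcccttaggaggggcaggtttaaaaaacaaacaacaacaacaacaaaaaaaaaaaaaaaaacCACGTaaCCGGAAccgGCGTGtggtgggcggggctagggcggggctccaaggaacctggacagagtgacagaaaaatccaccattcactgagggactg
Zfp217: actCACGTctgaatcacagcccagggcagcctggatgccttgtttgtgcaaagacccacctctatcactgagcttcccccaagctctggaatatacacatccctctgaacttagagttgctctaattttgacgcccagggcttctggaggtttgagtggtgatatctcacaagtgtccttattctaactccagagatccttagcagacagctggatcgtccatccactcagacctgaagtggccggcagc
Zfp367: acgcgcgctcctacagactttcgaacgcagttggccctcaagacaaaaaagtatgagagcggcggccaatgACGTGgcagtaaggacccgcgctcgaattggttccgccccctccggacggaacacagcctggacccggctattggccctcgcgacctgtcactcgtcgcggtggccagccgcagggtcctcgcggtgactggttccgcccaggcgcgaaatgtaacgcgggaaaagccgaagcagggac
In these windows Zfp958 and Zfp40 hold 1 TTCCGG each, and Zfp217 and Zfp367 hold none. With the 50 bases after the start included, Zfp958 and Zfp40 hold 2 each and Zfp217 holds 1. ACGTG was found 1 time each in Zfp40, Zfp217 and Zfp367, and GCGTG 1 time in Zfp40.

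Over the 114 members with a promoter in the RefSeq table (250 bases before to 50 after the start, both strands), TTCCGG was in 39.5%, against 21.1% of the 11806 promoters of measured genes and 15.8% of all 27457 promoters. Read against the expression calls, the letters were in 40.7% of the 54 promoters of members lower with ouabain, in 7 of the 28 of members higher with ouabain and in 16 of the 32 of members that did not pass. Either hypoxia core was in 62.3% of members and 52.1% of measured genes, against 42.9% of all promoters. GCGTG alone was in 45.6% of members, 40.6% of measured genes and 31.1% of all promoters, and ACGTG in 24.6%, 22.3% and 19.7%. CACGTG, which contains ACGTG, was in 8.77% of members, 7.89% of measured genes and 6.65% of all promoters. The CRE TGACGTCA was in 3.51%, 2.45% and 1.91%, and the AP-1 letters TGANTCA in 4.39%, 6.23% and 7.33%. The letters to search were chosen after expression values were known, so these shares are descriptions of sequence, and a match is not a bound site.

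The members counted as transcription factors of broad use rose more often than they fell. Of 10 measured, 5 were higher and 2 lower with ouabain, and 5 were higher and 1 lower without K+ (5 against 2, and 4 against 1, when centred on B2m). The shares over all probe sets were 15.8% higher and 16.8% lower with ouabain, and 16.1% and 17.9% without K+. These members were bright, with a median signal of 10.3. In bin 9 of 9-array signal, which holds that median, 32.8% of other genes were higher and 23.5% lower with ouabain. Without K+ it was 33.2% and 28.2%. The part of signal in this lean was not tested. Zfp217, the gene of a subunit of a CoREST and LSD1 repressor complex, had 8.11, 8.14 and 8.06 in control, 8.71, 8.84 and 8.88 with ouabain, and 9.59, 9.59 and 9.46 without K+. The 3 groups stood apart in that order. The rise was 1.63-fold with ouabain (limma adjusted p = 3.30e-06) and 2.72-fold without K+ (limma adjusted p = 1.27e-08). Zfp143, which activates small nuclear RNA and many housekeeping promoters, had 9.23, 9.08 and 9.21 in control, 9.86, 9.84 and 9.77 with ouabain, and 10.30, 10.24 and 10.20 without K+. Its 3 groups were separate as well, with rises of 1.57-fold and 2.10-fold. Zfp335, part of a histone methyltransferase complex needed in neural progenitors, rose by 1.06 and 0.94 on the log2 scale, and Zfp281, known from stem cell pluripotency, by 0.51 and 0.89.

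Other members of that list moved in 1 medium or downwards. Zfp131 rose by 0.51 with ouabain, and its 0.15 without K+ lay below the fold limit. Zfp384 rose by 0.31 without K+. Zfp260, a cardiac transcription factor gene, fell with ouabain (-0.30) and further without K+ (-0.63). Zfp410, whose protein is known to act on the chromatin remodeller gene Chd4, fell by 0.29 with ouabain, a call that was lost without Ouabain replicate 2 (-0.26). The differences of Zfp148, a binder of GC-rich promoters, were 0.18 and -0.04, and those of Zfp219 -0.06 and -0.08; none passed.

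Members with tasks in RNA handling, ribosomes or ubiquitin showed no common direction. Of 7 measured, 3 were higher and 1 lower with ouabain, and 1 was higher and 1 lower without K+. All probe sets together had 15.8% higher and 16.8% lower with ouabain, and 16.1% and 17.9% without K+. Centred on B2m the split turned, with 2 higher and 4 lower with ouabain and 1 higher and 3 lower without K+. Zfp622, a factor of large ribosomal subunit assembly, rose by 0.96 and 0.66 on the log2 scale. Its 3 K_Free arrays all had the same value, 9.53, for which no reason is given. A second probe set of Zfp622 rose by 0.80 and 0.62. Zfp598, the ubiquitin ligase that marks collided ribosomes, had 9.61, 9.54 and 9.47 in control, 10.13, 10.24 and 10.11 with ouabain, and 9.51, 9.45 and 9.54 without K+. Only the Ouabain arrays stood above the others, and the K_Free mean lay 0.66 below ouabain (SE 0.058, limma adjusted p = 1.31e-05). Zfp346, a double-stranded RNA binder, rose by 0.30 with ouabain, a call lost without Control replicate 2 (0.24) or Ouabain replicate 3 (0.23). Zfp330 fell by 0.29 with ouabain, lost without Control replicate 2 (-0.25) or Ouabain replicate 1 (-0.25). Zfp207, a spindle and kinetochore protein gene, was the brightest member, with a mean signal of 12.33, and fell by 0.27 without K+, at the edge of the fold limit. That call was lost without Control replicate 2, Control replicate 3, K_Free replicate 2 or K_Free replicate 3 (-0.24 to -0.26). The ribosome biogenesis gene Zfp593 (-0.25 and -0.18) and Zfp706 (-0.17 and -0.26) did not pass.

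Of 5 members with known roles in development, 3 were higher and 1 lower with ouabain, and 3 were higher without K+ with none lower (1 against 1, and 1 against 0, when centred on B2m). Among all probe sets 15.8% were higher and 16.8% lower with ouabain, and 16.1% and 17.9% without K+. Zfp292 was the clearest, with 10.11, 10.08 and 10.06 in control, 10.81, 10.79 and 10.87 with ouabain, and 10.83, 10.75 and 10.80 without K+. It rose by 0.74 and 0.71 on the log2 scale, and 2 further probe sets of it rose by 0.74 and 0.83, and by 0.99 and 0.97. Zfp703 rose by 0.42 and 0.34; its K_Free call was lost without Control replicate 1 (0.24), K_Free replicate 1 (0.33) or K_Free replicate 3 (0.35). Zfp521 was dim, at 5.68 to 6.17, and rose by 0.28 and 0.32; its call with ouabain was lost without Control replicate 1 or 2 or Ouabain replicate 1 or 3 (0.25 to 0.26). Zfp57, which protects imprinted DNA methylation together with Trim28, fell by 0.35 with ouabain and differed by 0.00 without K+, and the K_Free mean exceeded that with ouabain by 0.35 (limma adjusted p = 0.000264). The differences of Zfp423, an adipocyte and cerebellar regulator, were 0.13 and 0.07 and did not pass.

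Among the brightest members the calls were mixed. Zfp142 rose with ouabain (0.79) and without K+ (0.39), and Zfp800 rose by 0.33 with ouabain and differed by 0.00 without K+. The ouabain call of Zfp800 was lost without Ouabain replicate 3 (0.26). Zfp275 differed by 0.13 and 0.32 and did not pass, while its second probe set was called higher without K+ at 0.43. The dimmest member over the 9 arrays was Zfp2, at 6.20, 6.27 and 5.98 in control, 4.99, 5.05 and 5.07 with ouabain and 5.08, 5.08 and 5.21 without K+. It fell 2.16-fold and 2.04-fold without any overlap. Zfp865 (-0.21 and -0.06) did not pass, and Zfp352 (0.23 and 0.34) passed only without K+.

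The 2 treatments were also compared directly. Of the 135 members, 27 were higher and 19 lower without K+ than with ouabain, the latter being 14.1%. Over all probe sets the shares were 8.45% and 7.97%, and among other genes of like signal 16.7% and 16.2%. The median difference of the members was 0.07 and the range -0.76 to 1.68. The arrays of the 2 treatments did not overlap for 70 members (51.9%), against 32.4% of all probe sets. Against control, 113 members (83.7%) did not overlap with ouabain and 108 (80.0%) without K+, against 54.2% and 57.1% of all probe sets.

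The widest gap, and the only one past 2-fold, was that of Zfp458. Its signals were 7.35, 7.56 and 7.40 in control, 6.08, 5.88 and 6.27 with ouabain, and 7.86, 7.68 and 7.72 without K+. The Ouabain arrays lay more than 1 log2 unit below all others, and the K_Free arrays lay just above control. It fell 2.57-fold with ouabain (limma adjusted p = 5.24e-07) and exceeded ouabain 3.20-fold without K+ (log2 difference 1.68, SE 0.096, limma adjusted p = 5.88e-07). Its rise of 0.32 over control without K+ (limma adjusted p = 0.0182) was lost without Control replicate 1 (0.28), Control replicate 3 (0.30) or K_Free replicate 1 (0.27), and with arrays centred on the reference genes (0.27) or on B2m (0.16). Its chromosome neighbour Zfp455 fell in both media (-1.09 and -0.47), and the K_Free mean exceeded that with ouabain by 0.62.

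Zfp26 had 9.81, 9.84 and 9.73 in control, 8.69, 8.71 and 8.86 with ouabain, and 9.59, 9.53 and 9.63 without K+. It fell 2.05-fold with ouabain, lay 0.21 below control without K+, under the fold limit, and differed between the treatments by 0.83 (SE 0.061, limma adjusted p = 3.84e-06). Zfp37 had 8.16, 8.20 and 8.28 in control, 7.94, 7.76 and 8.03 with ouabain, and 8.67, 8.52 and 8.52 without K+. The 3 groups were separate and lay on either side of control, by -0.30 with ouabain (limma adjusted p = 0.00737) and by 0.36 without K+ (limma adjusted p = 0.00214). The fall with ouabain was lost without Ouabain replicate 2 (-0.22), under repeated quantile normalization (-0.09) and in the methods' t-test, and the rise without K+ was lost when centred on B2m (0.20). The difference between the treatments, 0.66 (SE 0.074, limma adjusted p = 8.05e-05), was called with each of the 9 arrays left out in turn.

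In the other direction, Zfp566 had 8.56, 8.32 and 8.29 in control, 8.59, 8.63 and 8.51 with ouabain, and 7.81, 7.71 and 7.92 without K+. Its Ouabain and Control arrays overlapped and its K_Free arrays lay below both, by 0.76 against ouabain (SE 0.080, limma adjusted p = 4.95e-05). Next came the gap of -0.66 in Zfp598, which was higher with ouabain, as described above. The following 3 gaps were in genes lowered by both treatments. Zfp382 had -0.33 with ouabain and -0.89 without K+, Zfp266 -0.64 and -1.09, and Zfp287 -0.82 and -1.23. Their gaps of -0.55, -0.45 and -0.42 passed the limma test.

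**Figure D4:**
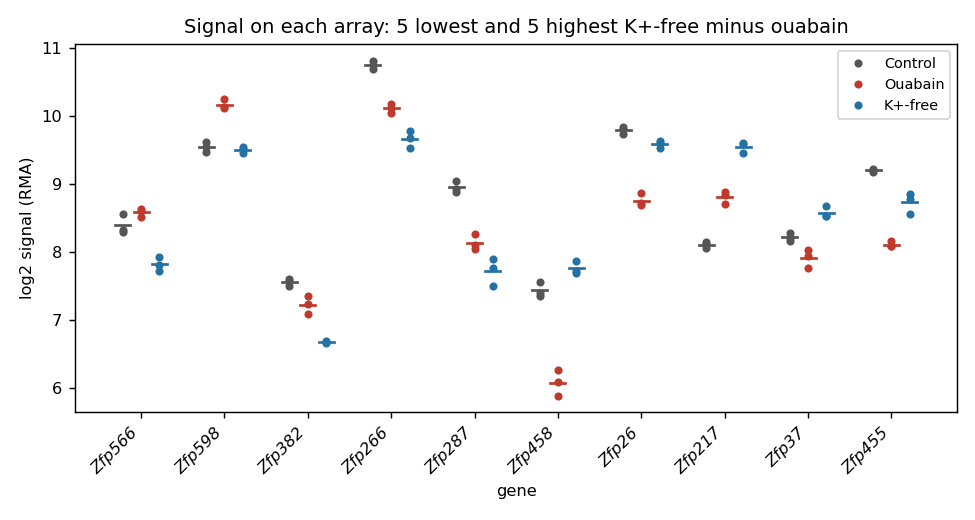
Points are log2 signals of single arrays (vertical axis) for the 5 genes lowest and the 5 highest without K+ relative to ouabain (horizontal axis); grey is control, red ouabain, blue K+-free medium (3 arrays each), and the short line is the group mean. The 10 genes were taken from those with a called difference and no overlap of red and blue, so their separation follows from the choice. For Zfp458 the red points lie between 5.88 and 6.27 and the blue ones between 7.68 and 7.86.

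By position in the RefSeq annotation of GRCr8, 49 members had another member among the 5 protein-coding genes on either side, in 17 neighbourhoods of up to 7 genes. Of these 49, 26 (53.1%) were lower and 7 higher with ouabain, and 26 (53.1%) were lower and 8 higher without K+. Of the other 86, 35 (40.7%) were lower and 24 higher with ouabain, and 28 (32.6%) were lower and 26 higher without K+. Centred on B2m, the neighbours had 34 lower and 4 higher with ouabain, and 29 lower and 3 higher without K+. The others then had 45 lower and 17 higher, and 35 lower and 13 higher. The neighbours were also dimmer, with a median signal of 7.95 against 8.58 on the Control arrays and of 7.78 against 8.50 over all 9, where the falls themselves lower the signal. The part of signal in this difference was not tested. Neighbours can share sequence, and array probes may then read more than 1 of them.

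Of the 7 neighbourhoods of 3 or more genes, 4 lie on chromosome 1. On chromosome 8, Zfp26, Zfp426, Zfp266 and Zfp846 were all lower with ouabain, and all but Zfp26 were lower without K+. The chromosome 4 neighbourhood of 7 genes opened with Zfp786 (-1.37 and -0.79) and Zfp398 (-0.64 and -0.55), which fell in both media. Of its next 5 genes, Zfp282, Zfp212, Zfp777 and Zfp746 did not pass in either medium, and Zfp467 passed only as higher without K+ (0.31). On chromosome 1, Zfp14, Zfp566, Zfp260 and Zfp382 were all lower without K+, and all but Zfp566 with ouabain. A chromosome 1 neighbourhood of 5 genes held 3 that were lower in both media, Zfp112 (-0.41 and -0.29), Zfp61 (-0.63 and -0.79) and Zfp94 (-1.12 and -0.91), and Zfp180 and Zfp111, which did not pass. The K_Free call of Zfp112 was lost when single arrays were left out. The other chromosome 1 neighbourhoods, of 3 genes each, were mixed. In one, Zfp583 was lower in both media (-1.18 and -1.12), Zfp787 higher (0.43 and 0.38) and Zfp667 not called. The calls of Zfp787 in both media were lost when single arrays were left out, and its Ouabain and Control arrays overlapped. In the other, Zfp524 was lower in both (-0.44 and -0.57), Zfp579 only without K+ (-0.30), and Zfp865 did not pass. On chromosome 7, Zfp472 (-0.50 and -0.82) and Zfp763 (-1.58 and -1.14) were lower and Zfp101 did not pass. Among the neighbourhoods of 2 genes, a few were picked out after their values were seen because their members moved apart. On chromosome 16 Zfp866 fell by 1.09 with ouabain while Zfp868 was 0.59 higher. On chromosome 10 Zfp692 fell (-0.63 and -0.89) while Zfp672 was 0.41 and 0.37 higher.

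**Figure D5:**
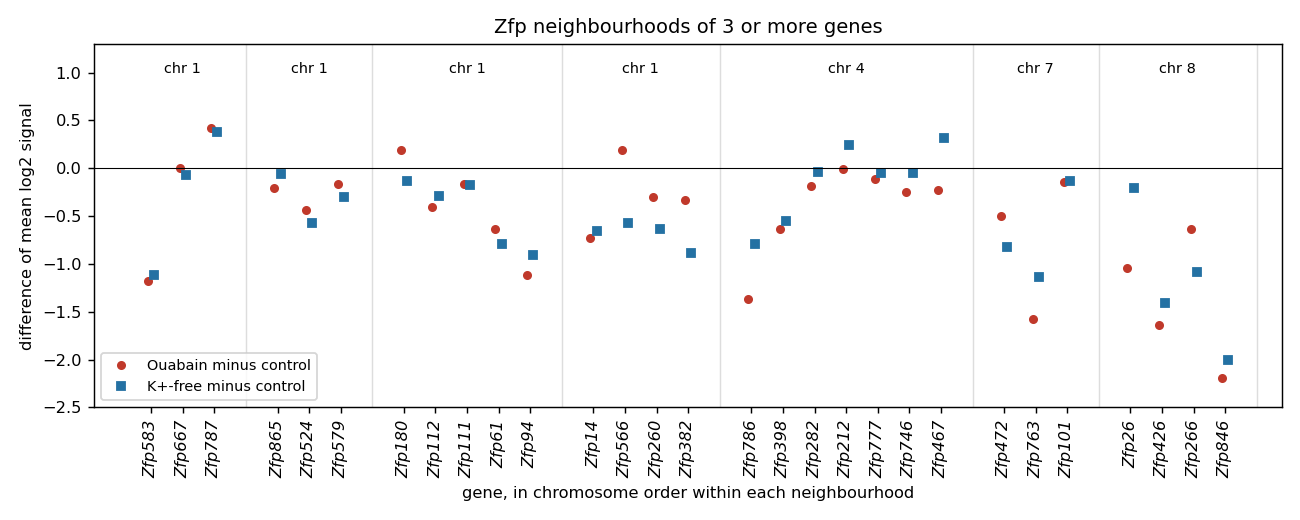
Differences of mean log2 signal (vertical axis) for the 29 members in neighbourhoods of 3 or more, in chromosome order within each neighbourhood (horizontal axis); red circles are Ouabain minus Control, blue squares K_Free minus Control (3 arrays a group). The chromosome 8 genes all lie below 0, down to -2.20 for Zfp846, while 5 of the chromosome 4 genes lie between -0.25 and 0.31.

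The partners of KRAB zinc finger proteins were read from a list of corepressor and heterochromatin genes, of which 18 of 24 were measured. With ouabain 2 were higher and 5 lower (median 0.02), and without K+ 2 were higher and 8 lower (median -0.19). For all probe sets the shares were 15.8% higher and 16.8% lower with ouabain, and 16.1% and 17.9% without K+. Trim28 itself had 11.94, 11.88 and 11.92 in control, 11.95, 12.08 and 11.94 with ouabain, and 11.23, 11.28 and 11.22 without K+. The K_Free arrays lay below all others: the difference was 0.08 with ouabain, which did not pass, and -0.67 without K+, and the K_Free mean lay 0.75 below ouabain. Setdb2, a SET domain methyltransferase related to the KRAB partner Setdb1, fell (-0.97 and -1.03). Suv39h2, a histone H3 lysine methyltransferase, rose by 0.80 and 0.69.

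Other zinc finger families were counted beside the numbered Zfp genes. For comparison, 15.8% of all probe sets were higher and 16.8% lower with ouabain, and 16.1% and 17.9% without K+. Of 31 Zbtb genes, which carry a BTB domain, 13 were higher and 5 lower with ouabain, and 17 were higher and 4 lower without K+ (10 against 7, and 13 against 6, when centred on B2m). The largest changes with ouabain were the rises of Zbtb2 (1.63, and 2.23 without K+) and Zbtb11 (1.58 and 1.57) and the fall of Zbtb37 (-1.34 and -0.89). Without K+, Zbtb10 (1.26), Zbtb38 (0.98), Zbtb6 (0.97) and Zbtb14, which fell, changed more than Zbtb37. Of 15 Krueppel-like factors, 11 were higher and 1 lower with ouabain, and 8 were higher and 1 lower without K+ (8 against 2, and 5 against 4, when centred on B2m), led by Klf10 (2.03 and 2.84), Klf5 (1.78 and 2.13) and Klf4 (1.32 and 1.78). Of 7 Zscan and Zkscan genes, which carry a SCAN domain, 1 was higher and 3 lower with ouabain, and 2 were higher and 1 lower without K+. Centred on B2m, none of the 7 was higher in either medium, and 4 and 2 were lower. Zscan12 fell (-1.75 and -1.62), and Zkscan1 had -0.82 with ouabain, which passed, and -0.10 without K+, which did not. Zbtb2, Klf10, Klf5, Klf4 and Zscan12 are printed in the study's tables, chosen on these arrays, so their changes here are not independent evidence.

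The array medians ran from 6.76 to 6.80, a spread under 0.1 log2 unit. The members' median signal was 8.45 to 8.50 on the Control arrays, 7.96 to 8.09 on the Ouabain arrays and 7.95 to 8.08 on the K_Free arrays. Smooth muscle markers ranged widely in brightness. Mean signals were 13.5 for Tagln, 12.1 for Cnn1, 8.68 for Lmod1 and 8.48 for Myh11, while Des (5.77) was near the floor. Lmod1 (-1.61 with ouabain and -1.48 without K+) and Myh11 (-0.69 and -0.62) were called lower in both media. Of 9 measured, 6 were lower with ouabain and 3 without K+, and their summed linear signal was 30583 to 31399 in control, 24441 to 26971 with ouabain and 27276 to 27764 without K+. The 4 measured endothelial markers were dim, at 5.71 to 5.88, and their sums were 203 to 212, 226 to 236 and 227 to 240 in the same order. Their median log2 difference was 0.12 with ouabain and 0.17 without K+, and 0.02 and 0.08 under repeated quantile normalization. Other genes in bins 2 and 3 of 9-array signal, equally dim, had medians of 0.11 and 0.13 with ouabain. Without K+ these were 0.09 and 0.13. Of 7 macrophage markers 3 were higher in each treatment (Cd68, Cd14 and Csf1r), with sums of 542 to 594, 1064 to 1137 and 716 to 825, while Ptprc, Itgam and Adgre1 were at 5.42 to 5.68. Of 5 fibroblast markers 1 was higher with ouabain and 2 without K+, with sums of 15938 to 16305, 16655 to 18403 and 18499 to 18924. Beside these marker counts, all probe sets had 15.8% higher and 16.8% lower with ouabain, and 16.1% and 17.9% without K+. The part of the marker shifts in the numbered Zfp results was not tested.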

How the data were processed

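For 27342 probe sets the authors deposited RMA signals on the log2 scale; the submitters' processing notes also name Partek, with no versions. Genes were named from the platform annotation: 15097 probe sets have 1 symbol, 323 several and 11922 none, and all 135 symbols are also current in RefSeq. limma 3.58.1 in R 4.3.3 fitted 1 mean per group over all 9 arrays, with empirical Bayes moderation and Benjamini-Hochberg adjustment over all probe sets, and was tested on simulated data. Fold changes are differences of mean log2 signal. The number of arrays limits the precision. Counts beside lists, bins of signal, neighbourhoods and promoters (114 of 135 members matched) are descriptions. Members and lists were chosen with earlier results of these data known. Genes named in the text were the largest called changes without overlap, the brightest and dimmest members, the role lists, the members in the study's tables and up to 3 genes per other list; further neighbours were named from every neighbourhood of 3 or more, and from pairs picked after their values were seen. Of 10 reference genes, 2 were higher with ouabain and 1 without K+. The methods state that controls and treatments were run in parallel in each experiment, but no source ties the replicate numbers to experiments, and same-number correlations of deviations ran from -0.05 to 0.31, so the numbers were not used as pairs. Protein features were not analysed here.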

Additional observations from a re-analysis of the deposited data

Results flagged for a closer look

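Zfp458 and Zfp37 were lower with ouabain and higher without K+ than in control, each with a tested difference between the treatments: 1.68 on the log2 scale for Zfp458 and 0.66 for Zfp37 (limma, Benjamini-Hochberg adjusted). The rise of Zfp458 over control was lost without Control replicate 1, Control replicate 3 or K_Free replicate 1 (0.27 to 0.30), and the fall of Zfp37 below control was lost without Ouabain replicate 2 (-0.22). Groups of 3 arrays were not searched for single arrays that stand apart.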

How the results depend on the processing

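More members were lower than higher than control under every scaling tried, and no value of a named member that had passed the test changed sign under any alternative. The median difference with ouabain was -0.0802 under repeated quantile normalization, -0.28 with arrays centred on the reference genes and -0.36 when centred on B2m. Without K+ these were -0.0299, -0.12 and -0.23. Members higher without K+ numbered 16 when centred on B2m. With a fold above 1.5, members higher with ouabain numbered 15, those higher and lower without K+ 13 and 35, and those higher and lower without K+ than with ouabain 7 and 2. The methods' t-test, adjusted, called 16 higher and 8 lower between the treatments.

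Leaving out each array in turn gave 29 to 31 higher and 59 to 62 lower members with ouabain (median -0.23 to -0.18), 31 to 37 higher and 52 to 56 lower without K+ (median -0.11, without Control replicate 3, to -0.0738), and 25 to 28 higher and 15 to 20 lower between the treatments (median 0.05 to 0.09). Called with every array left out were 80 of the 92 members with ouabain, 80 of 88 without K+ and 33 of 46 between the treatments. Of 3717 alternative values of named members, 3562 kept their side of the threshold, 112 lost the call and 43 gained it. Centred on B2m, the calls lost were those of Zfp346, Zfp521, Zfp703 and Zfp800 with ouabain, and of Zfp37, Zfp142, Zfp352, Zfp384, Zfp458, Zfp521 and Zfp703 without K+. Repeated quantile normalization lost Zfp37, Zfp330, Zfp382 and Zfp521 with ouabain and Zfp521 without K+.

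With the replicate block, 31 members were higher and 61 lower with ouabain, 35 higher and 54 lower without K+, and 27 higher and 20 lower between the treatments; Zfp275 was then called higher without K+ and Zfp386 lower than with ouabain. RMA as usually run brings arrays to a common distribution, so a shift of all genes together would not show, and falls of members near the floor may be understated. Sorting members by Control signal, an alternative chosen after seeing the data, moved the members lower with ouabain from 41 to 34 among the dimmer and from 20 to 27 among the brighter.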
